A study of Homo sapiens with 6 samples.

Results

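The 34 genes described here encode the carriers that bring glucose into the cell, the enzymes of glycolysis, the lactate dehydrogenases and the carriers of lactate, and the proteins that let pyruvate into the mitochondrion and on to acetyl-CoA. They were chosen by gene symbol from their known roles and not by their values, though earlier results of these data were known. All 34 were found among the 36459 gene symbols of the count table, and all 34 were among the 14626 genes that passed a filter on low counts and were tested. RNA was sequenced from PC9, a line of human non-small cell lung cancer driven by mutant EGFR, and from persister cells (PS), the PC9 cells left after 6 days of culture with 15 µM erlotinib, which blocks the kinase of EGFR. Each condition had 3 libraries, the PC9 libraries from 3 independent cultures of the parental line and the PS libraries from 9 cultures pooled into 3. Both conditions came from this single line with no engineered allele, and the PS cells were collected in the continued presence of the drug, so that the persister state and the direct action of erlotinib cannot be told apart.

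Glycolysis splits glucose into pyruvate and yields ATP and NADH without oxygen. Most of its steps are served by several isozymes, encoded by separate genes, that differ in affinity, in regulation and in the tissues that use them. Pyruvate then has a choice of fates: lactate dehydrogenase reduces it to lactate, which leaves through monocarboxylate carriers, or the mitochondrial pyruvate carrier hands it to the pyruvate dehydrogenase complex, which the pyruvate dehydrogenase kinases switch off. Proliferating tumour cells are known for high glycolytic flux and lactate release, and EGFR signalling is among the inputs that sustain it.

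The 6 libraries held 29476725 to 34893782 estimated counts each. Replicates of a condition differed by more than sampling noise, with a chi-square of 3.41 to 20.0 per degree of freedom, and none was a copy of another. Values in CPM are counts scaled to the library total of the genes tested, with its TMM normalization factor. The epithelial markers EPCAM, KRT8, KRT18, KRT19 and CDH1 summed to 5574 to 5985 CPM in PC9 and 3331 to 3499 CPM in PS. The exception was CDH1, at a mean of 207 CPM in PC9 and 314 CPM in PS and above PC9 in every PS library. The lung adenocarcinoma list summed to 1943 to 2071 CPM in PC9 and 2606 to 2801 CPM in PS, nearly all of it KRT7. In that list SFTPB had a mean of 4.18 CPM in PC9 and 1.23 CPM in PS, while NKX2-1 had at most 1 count, NAPSA at most 11 counts and SFTA3 a count of 0 in every library. The fibroblast list summed to 10.2 to 10.7 CPM in PC9 and 26.5 to 30.1 CPM in PS, nearly all of it COL1A1, with at most 6 counts of COL1A2, DCN, LUM or PDGFRA in any library. The leukocyte list summed to 74.7 to 76.5 CPM in PC9 and 19.6 to 22.6 CPM in PS, nearly all of it CD68, with PTPRC at most at 12 counts and CD3E at 0. The endothelial list summed to 8.28 to 9 CPM in PC9 and 3.73 to 4.27 CPM in PS. In that list PECAM1 had a mean of 4.37 CPM in PC9 and 0.214 CPM in PS, and CDH5 3.82 and 2.98 CPM. TEK, at 0.0785 and 0.176 CPM, was above PC9 in every PS library, and VWF and KDR overlapped.

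The pathway did not shift as a block. Of the 34 genes, 26 changed between PC9 and PS, 11 of them higher and 15 lower in PS, by the quasi-likelihood test of edgeR, adjusted by Benjamini-Hochberg over all genes tested, at a limit of 0.01. Over all genes tested 56.8% were called, 28.7% higher in PS and 28.1% lower in PS, so the share called in the pathway, 26 of 34, stands beside a change of much of the transcriptome. The median log2 fold change was 0.0085 over the 34 genes and -0.0061 over all genes tested. The values of the PC9 and PS libraries did not overlap for 29 of the 34 genes, 14 above and 15 below PC9, against 71.3% of all genes tested. Only TIGAR, ALDOC and PDK4 were called with a change of over 2-fold, against 11.6% of all genes tested, and most of the other genes moved by much less. In bulk RNA, fewer cells of a type and less RNA per cell cannot be told apart, and the p-values measure the spread between these libraries. Because the PS libraries were pools of cultures and the PC9 libraries were not, the spread in PS is not that between single cultures. The values of the genes are given below as CPM, with means ± SD over 3 libraries.

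**Figure D1:**
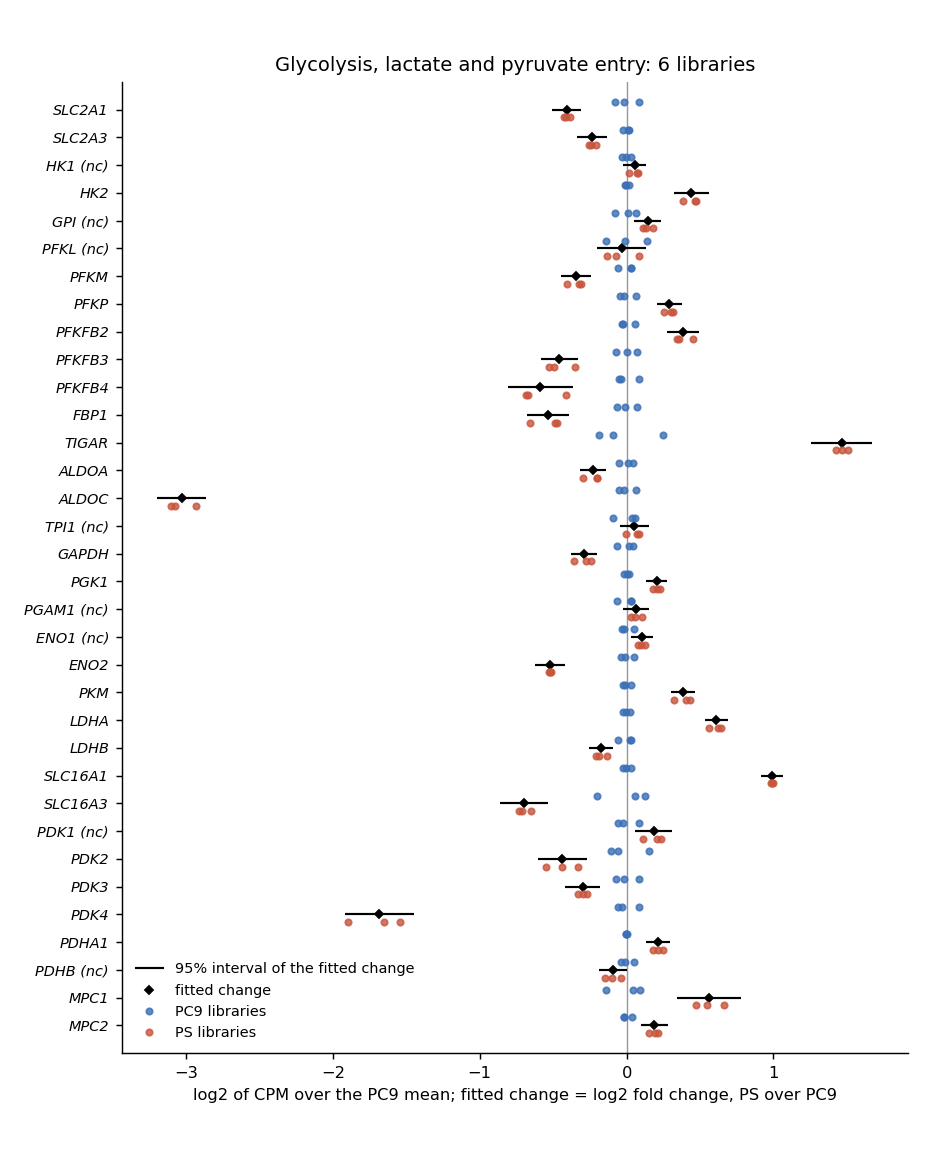
Each row is a gene of the pathway in the order of the reactions, with the CPM of the 3 PC9 libraries (blue) and 3 PS libraries (red) on a log2 scale relative to the PC9 mean and the fitted log2 fold change (black diamond) with its 95% interval; nc marks the 8 genes that were not called. ALDOC, at a fitted change of -3.03, and PDK4, at -1.69, lie far to the left, TIGAR, at 1.46, lies far to the right, and the other genes lie within 1 log2 unit of the PC9 mean.

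The promoters of these 3 genes with the largest changes are shown as the 250 bases before the start site, from RefSeq on GRCh38.p14. Capitals mark ACGTG, the core of the element bound by hypoxia-inducible factors (HIF), and its variant GCGTG, searched on both strands, where CACGTG, the E-box bound by MYC and by MLX with its partners, holds ACGTG on each strand. The TIGAR window is chr12:4320963-4321212 on the plus strand, within the annotated span of the gene but in no exon. The ALDOC window is chr17:28576896-28577145 on the minus strand, and its downstream end runs into the first exon of another ALDOC transcript. The PDK4 window is chr7:95596517-95596766 on the minus strand and overlaps the first exon of the antisense gene PDK4-AS1.
TIGAR: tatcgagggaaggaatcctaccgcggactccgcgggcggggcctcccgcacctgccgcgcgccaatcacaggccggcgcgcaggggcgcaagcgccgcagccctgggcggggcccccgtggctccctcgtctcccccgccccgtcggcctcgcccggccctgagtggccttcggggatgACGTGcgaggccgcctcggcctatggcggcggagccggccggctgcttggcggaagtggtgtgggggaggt
ALDOC: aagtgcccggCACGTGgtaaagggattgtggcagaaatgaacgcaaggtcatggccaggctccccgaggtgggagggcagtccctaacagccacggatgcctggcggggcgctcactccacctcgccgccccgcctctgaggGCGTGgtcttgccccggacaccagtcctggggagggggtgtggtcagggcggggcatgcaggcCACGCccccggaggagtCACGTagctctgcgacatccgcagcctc
PDK4: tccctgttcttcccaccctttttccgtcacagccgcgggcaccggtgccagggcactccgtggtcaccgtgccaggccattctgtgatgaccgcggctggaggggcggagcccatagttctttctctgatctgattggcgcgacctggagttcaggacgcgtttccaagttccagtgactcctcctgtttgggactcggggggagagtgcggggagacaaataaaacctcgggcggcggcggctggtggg
The ALDOC window held 4 such stretches, the TIGAR window 1 and the PDK4 window 0. A promoter entry was found for 31 of the 34 genes, not for SLC2A3, PFKFB2 and SLC16A1. Either ACGTG or GCGTG was present in 25 of the 31, which is 80.6%, against 47.4% of 27305 genes with an entry. Genes with several start sites have several windows, and among genes with 1 start site the share was 73.7% (14 of 19) against 42.2% of 22114. Over all genes with an entry, ACGTG was found in 21.7%, GCGTG in 36.2% and CACGTG in 7.7%. These are matches of letters, not adjusted for base composition. The background was every gene with an entry and was not limited to the genes that passed the filter on low counts, as all 34 did. SLC2A1, PGAM1, PKM, LDHB, PDK4 and MPC2 held neither motif in these windows, and this group includes genes that were higher, lower and not called in PS.

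Glucose enters through facilitative carriers, and both carriers of the list were lower in PS. SLC2A1, which encodes GLUT1, the main glucose carrier of most tumour cells, was at 309, 346 and 323 CPM in the PC9 libraries and at 243, 245 and 249.6 CPM in the PS libraries. All PS libraries were below all PC9 libraries, and the log2 fold change was -0.41 ± 0.044 (SE; edgeR adjusted p = 1.0e-05). SLC2A3, which encodes the high-affinity carrier GLUT3, fell from 30.7 ± 0.50 to 26.1 ± 0.45 CPM, a log2 fold change of -0.23 ± 0.046 (SE; edgeR adjusted p = 0.00096). Levels of different genes were compared per length, as TPM, transcript counts divided by the annotated transcript length and scaled to the library total. The TPM of a gene summed all its matched transcripts, coding or not. For SLC2A1, 58.2% of TPM in PC9 and 58.4% in PS lay on SLC2A1-208, annotated as a target of nonsense-mediated decay. On this scale SLC2A1 made up 93.6% ± 0.50 of the pair in PC9 and 92.7% ± 0.50 in PS, and the libraries overlapped (exact two-sided permutation test over libraries, p = 0.2, where 3 against 3 cannot go below 0.1).

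Hexokinase traps glucose as glucose 6-phosphate. HK2, the inducible isozyme that sits on mitochondria and is raised in many tumours, was at 16.7, 16.8 and 17.02 CPM in PC9 and at 23.3, 21.9 and 23.3 CPM in PS. It was higher in each PS library than in any PC9 library, with a log2 fold change of 0.44 ± 0.054 (SE; edgeR adjusted p = 2.7e-05). HK1, the constitutive isozyme, was at 219.7 ± 4.76 CPM in PC9 and 228 ± 5.15 CPM in PS and was not called (log2 fold change 0.055, edgeR adjusted p = 0.19). HK1 had the higher level of the pair per length, and the share of HK2 in the TPM of the pair was 4.78% ± 0.14 in PC9 and 6.09% ± 0.31 in PS, without overlap (exact permutation p = 0.1, the smallest possible). Nearly all HK1 counts lay on transcripts whose version differs from the annotation that gave the lengths, so its level rests on a later model of the same transcript. A further hexokinase gene outside the 34, HKDC1, named after its values were seen, was at 209.9 ± 4.48 CPM in PC9 and 225 ± 2.76 CPM in PS (log2 fold change 0.10, edgeR adjusted p = 0.023, not called), so the shares of HK1 and HK2 describe this pair and not all hexokinase. GPI, which turns glucose 6-phosphate into fructose 6-phosphate, was at 336 ± 16.7 and 371 ± 9.05 CPM. Its libraries did not overlap, but with a log2 fold change of 0.14 it missed the limit (edgeR adjusted p = 0.011), and without the second PC9 library it passed (log2 fold change 0.18, edgeR adjusted p = 0.0024), as it did with DESeq2 (adjusted p = 0.0025) and limma voom (adjusted p = 0.0097).

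Phosphofructokinase 1 commits the sugar to glycolysis, and its 3 subunit genes went different ways. PFKP, the platelet-type subunit, was at 237, 250.5 and 232 CPM in PC9 and at 286, 296 and 298.5 CPM in PS, a log2 fold change of 0.29 ± 0.039 (SE; edgeR adjusted p = 5.8e-05). PFKM, the muscle-type subunit, was at 55.8, 59.4 and 59.4 CPM in PC9 and at 46.6, 47.0 and 43.9 CPM in PS, a log2 fold change of -0.35 ± 0.047 (SE; edgeR adjusted p = 6.2e-05). The libraries were separated for both genes, in opposite directions. PFKL, the liver-type subunit, was at 53.4 ± 5.14 CPM in PC9 and 52.1 ± 4.17 CPM in PS, with overlapping libraries (log2 fold change -0.035, edgeR adjusted p = 0.70), and the sign of its change turned to 0.039 without the second PC9 library and to 0.013 without the first PS library. Per length PFKP was the main subunit, at 71.1% ± 1.63 of the TPM of the family in PC9 and 77.5% ± 0.43 in PS. The share of PFKM went from 15.2% ± 0.55 to 10.7% ± 0.77, and the share of PFKL from 13.7% ± 1.18 to 11.8% ± 0.45. None of the 3 shares overlapped between conditions (exact permutation p = 0.1 for each, the smallest possible).

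The PFKFB genes encode bifunctional enzymes that make and break fructose 2,6-bisphosphate, the strongest activator of phosphofructokinase 1. PFKFB2, the heart-type enzyme that is activated by phosphorylation, was at 32.9, 33.1 and 35.1 CPM in PC9 and at 46.1, 43.0 and 42.7 CPM in PS. PFKFB3, the form with the highest kinase activity and a known driver of glycolysis in growing cells, was at 51.4, 56.8 and 54.3 CPM in PC9 and at 42.4, 37.5 and 38.5 CPM in PS. The PS libraries were all above PC9 for PFKFB2 (log2 fold change 0.38 ± 0.050 SE, edgeR adjusted p = 4.9e-05) and all below PC9 for PFKFB3 (log2 fold change -0.46 ± 0.057 SE, edgeR adjusted p = 3.4e-05). PFKFB4, the testis-type form, fell from 7.79 ± 0.40 to 5.20 ± 0.57 CPM (log2 fold change -0.59, edgeR adjusted p = 0.00034). Per length PFKFB3 went from 65.9% ± 1.01 to 52.6% ± 1.1 of the TPM of the 3 genes and PFKFB2 from 23.2% ± 0.30 to 38.2% ± 1.26. PFKFB4 made up 10.97% ± 1.00 in PC9 and 9.18% ± 0.56 in PS, and no share overlapped between conditions (exact permutation p = 0.1 for each, the smallest possible).

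Enzymes that work against this step also changed in both directions. TIGAR, a p53-inducible phosphatase that lowers fructose 2,6-bisphosphate and steers sugar towards the pentose phosphate pathway, lies at chr12:4307763-4360028 (GRCh38, plus strand). It was at 8.05, 10.2 and 7.54 CPM in PC9 and at 24.4, 23.7 and 23.1 CPM in PS. The lowest PS library was above the highest PC9 library by a wide margin, and TIGAR had the largest rise of the pathway, 2.76-fold, with a log2 fold change of 1.46 ± 0.094 (SE; edgeR adjusted p = 1.7e-07). Its promoter, shown above, held a single ACGTG. FBP1, the fructose 1,6-bisphosphatase of gluconeogenesis, which reverses the phosphofructokinase step, was at 23.6, 25.9 and 24.6 CPM in PC9 and at 15.7, 17.6 and 17.8 CPM in PS. All PS libraries were lower, with a log2 fold change of -0.54 ± 0.065 (SE; edgeR adjusted p = 2.6e-05).

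The steps from fructose 1,6-bisphosphate to phosphoenolpyruvate hold GAPDH, the most abundant gene of the pathway in both conditions, and the largest fall. Aldolase C, the brain-type isozyme encoded by ALDOC at chr17:28573115-28576948 (GRCh38, minus strand), was at 27.9, 29.7 and 27.3 CPM in PC9 and at 3.36, 3.30 and 3.72 CPM in PS. This was 8.16-fold lower in PS with narrow spread in both conditions (log2 fold change -3.03 ± 0.075 SE, edgeR adjusted p = 1.4e-10), in the gene whose promoter window held the most motif stretches of the 3 shown. ALDOA, the main aldolase, fell from 1518 ± 49.8 to 1292 ± 50.8 CPM, a log2 fold change of -0.23 ± 0.040 (SE; edgeR adjusted p = 0.00037). ALDOC was a minor isozyme from the start, with 1.68% ± 0.044 of aldolase TPM in PC9 and 0.251% ± 0.014 in PS (exact permutation p = 0.1, the smallest possible).

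GAPDH, which makes the NADH of glycolysis and is often used as a reference gene, was at 4872, 5260 and 5150 CPM in PC9 and at 3981, 4202 and 4313 CPM in PS. It was lower in every PS library, with a log2 fold change of -0.29 ± 0.041 (SE; edgeR adjusted p = 8.3e-05). PGK1, the next enzyme and the first that yields ATP, went the other way, from 329 ± 3.33 to 379 ± 6.77 CPM (log2 fold change 0.20, edgeR adjusted p = 0.00022). TPI1, which interconverts the triose phosphates, was at 619.5 ± 34.1 and 642 ± 21.0 CPM, and PGAM1, phosphoglycerate mutase, at 205.5 ± 7.64 and 215 ± 5.99 CPM. Neither was called, with log2 fold changes of 0.052 (edgeR adjusted p = 0.33) and 0.064 (edgeR adjusted p = 0.18) and overlapping libraries, and the sign for TPI1 turned to -0.0019 when libraries were scaled by size only. ENO1, the main enolase, was at 1269 ± 36.6 CPM in PC9 and 1363 ± 22.9 CPM in PS, with separate libraries and a log2 fold change of 0.10 that missed the limit (edgeR adjusted p = 0.021) and passed it without the second PC9 library (log2 fold change 0.13, edgeR adjusted p = 0.0078).

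ENO2, the neuron-type enolase, was at 40.3, 42.9 and 41.2 CPM in PC9 and at 28.8, 29.01 and 28.9 CPM in PS. The fall was well outside the spread, with a log2 fold change of -0.52 ± 0.046 (SE; edgeR adjusted p = 2.1e-06). In the TPM of the enolase pair ENO2 went from 2.60% ± 0.0096 to 1.72% ± 0.054, without overlap (exact permutation p = 0.1, the smallest possible).

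PKM, pyruvate kinase M, makes pyruvate and was at 1593, 1652 and 1607 CPM in PC9 and at 2020, 2182 and 2138 CPM in PS. All PS libraries were above all PC9 libraries, with a log2 fold change of 0.39 ± 0.037 (SE; edgeR adjusted p = 4.7e-06). The gene, at chr15:72199029-72231819 on the minus strand of GRCh38, makes either PKM1, the constitutively active adult form, or PKM2, the form of embryonic and tumour tissue that can be held inactive, by choosing between a pair of mutually exclusive coding exons. These exons are shown because the split rests on them. The PKM1 exon is chr15:72203022-72203188 and the PKM2 exon chr15:72202454-72202620, each of 167 bases, read 5′ to 3′ on the minus strand from GRCh38, with the 62 bases at which they differ in capitals (62.9% identical).
PKM1 exon: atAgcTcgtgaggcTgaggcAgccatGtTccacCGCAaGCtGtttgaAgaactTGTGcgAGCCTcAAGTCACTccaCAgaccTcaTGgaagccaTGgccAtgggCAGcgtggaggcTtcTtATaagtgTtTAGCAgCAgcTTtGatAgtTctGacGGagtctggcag
PKM2 exon: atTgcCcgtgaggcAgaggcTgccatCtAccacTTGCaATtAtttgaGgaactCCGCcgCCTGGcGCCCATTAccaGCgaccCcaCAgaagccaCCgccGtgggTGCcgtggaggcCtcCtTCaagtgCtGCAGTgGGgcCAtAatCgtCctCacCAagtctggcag
Transcripts with the PKM2 exon held 90.5%, 93.1% and 92.2% of PKM TPM in the PC9 libraries and 93.7%, 93.5% and 94.8% in the PS libraries. The libraries were separate by a small margin, with a difference of 2.03 points (exact permutation p = 0.1, the smallest possible). Transcripts with the PKM1 exon held 0.782% ± 0.15 in PC9 and 0.732% ± 0.064 in PS, with overlapping libraries (exact permutation p = 0.8). The remainder, on transcripts with neither exon, was 7.26% ± 1.18 in PC9 and 5.28% ± 0.71 in PS. Among protein-coding transcripts alone PKM2 was at 98.9% in both conditions, a difference of 0.0043 points, so the difference in the PKM2 share was not present among coding transcripts.

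Lactate dehydrogenase showed one of the clearest isozyme shifts. LDHA, the muscle-type subunit that favours lactate formation, was at 844, 815 and 828 CPM in PC9 and at 1223, 1293 and 1278 CPM in PS. LDHB, the heart-type subunit that favours the use of lactate, was at 709.7, 751 and 752 CPM in PC9 and at 639.5, 647 and 673 CPM in PS. LDHA was thus higher in all PS libraries, 1.53-fold, and LDHB lower in all of them. The log2 fold change was 0.61 ± 0.035 for LDHA (SE; edgeR adjusted p = 7.5e-08) and -0.18 ± 0.037 for LDHB (SE; edgeR adjusted p = 0.0017). The call of LDHB rested on a small change and was lost without the third PC9 library (log2 fold change -0.16, edgeR adjusted p = 0.013) and without the second PS library (log2 fold change -0.17, edgeR adjusted p = 0.01045). Per length LDHA made up 52.4%, 50.5% and 50.4% of the TPM of both subunits in PC9. In PS it made up 63.4%, 64.9% and 63.9%, a difference of 12.95 points without overlap (exact permutation p = 0.1, the smallest possible). With counts divided by the longest transcript the LDHA share was 43.55% ± 1.203 in PC9 and 57.05% ± 0.67 in PS, so the difference held while which subunit led in PC9 did not.

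The monocarboxylate carriers moved in opposite directions as well. SLC16A1 at chr1:112911847-112957593 (GRCh38, minus strand) encodes MCT1, a carrier of lactate and pyruvate with high affinity, and was at 137.5, 135 and 140.3 CPM in PC9 and at 274.5, 273 and 273 CPM in PS. SLC16A3 encodes MCT4, the low-affinity carrier of cells that export much lactate, and was at 75.1, 94.2 and 89.6 CPM in PC9 and at 52.7, 52.0 and 54.8 CPM in PS. The PS libraries were tightly grouped for both genes and apart from PC9. The log2 fold change was 0.99 ± 0.034 for SLC16A1 (SE; 1.98-fold, edgeR adjusted p = 1.3e-09) and -0.70 ± 0.074 for SLC16A3 (SE; edgeR adjusted p = 9.1e-06). The share of SLC16A1 in the TPM of the pair was 35.7% ± 2.94 in PC9 and 64.2% ± 0.80 in PS, without overlap (exact permutation p = 0.1, the smallest possible). Only 50% of the SLC16A1 counts lay on transcripts that could be given a length. With all counts of each gene divided by a mean transcript length, an alternative chosen after seeing the data, the share was 52.3% ± 3.14 in PC9 and 78.1% ± 0.64 in PS, so the direction held while which carrier led in PC9 did not.

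**Figure D2:**
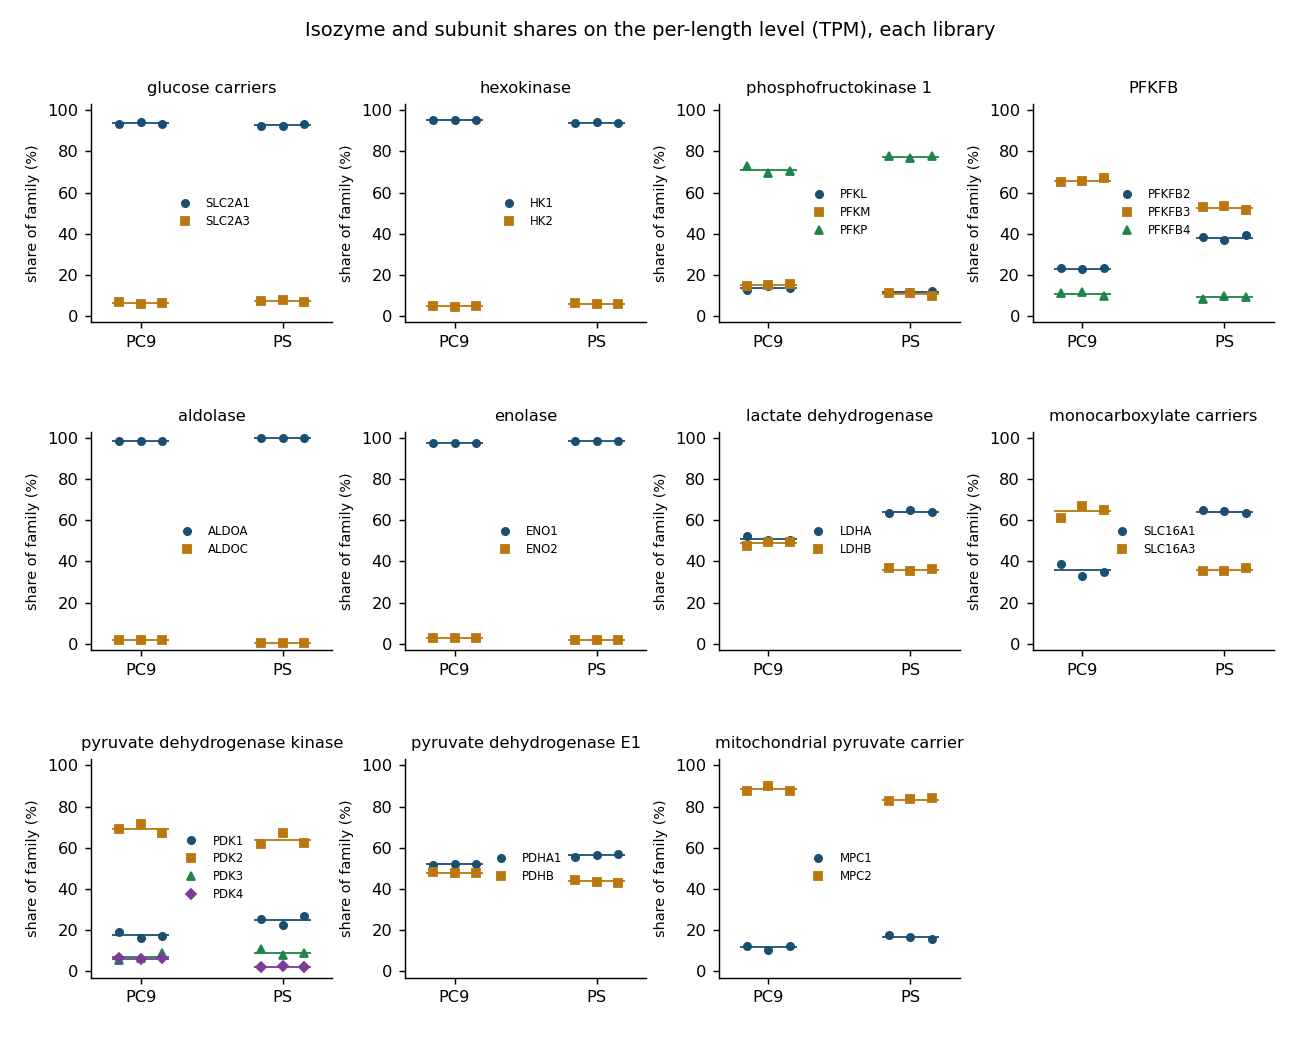
Each panel is an isozyme family or, for pyruvate dehydrogenase E1 and the mitochondrial pyruvate carrier, a pair of subunits of 1 complex, with the share of each gene in the summed TPM of the panel in percent for the 3 PC9 and 3 PS libraries (points) and their mean (line). The lines of SLC16A1 and SLC16A3 cross between PC9 and PS, LDHA draws away from LDHB, from 51.1% to 64.0%, and the PFKFB2 and PFKFB3 shares approach each other, while the glucose carriers and PDK3 overlap between conditions. Only 50% of SLC16A1 counts enter its TPM, and with all its counts used SLC16A1 had the larger mean share in both conditions.

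The pyruvate dehydrogenase kinases phosphorylate and inactivate pyruvate dehydrogenase and so keep pyruvate out of the citric acid cycle. PDK4, the form raised by fasting and fatty acids, at chr7:95583499-95596516 (GRCh38, minus strand), was at 9.73, 8.81 and 9 CPM in PC9 and at 2.47, 3.15 and 2.93 CPM in PS, from 300 to 335 counts per PC9 library and 72 to 100 per PS library. It was 3.21-fold lower in PS, with a log2 fold change of -1.69 ± 0.11 (SE; edgeR adjusted p = 1.6e-07), and its promoter window held neither motif. PDK2, the widely expressed form, was at 39.0, 45.3 and 37.9 CPM in PC9 and at 27.9, 32.3 and 30.0 CPM in PS (log2 fold change -0.44, edgeR adjusted p = 0.00038). PDK3 fell from 29.8 ± 1.601 to 24.2 ± 0.48 CPM (log2 fold change -0.30, edgeR adjusted p = 0.00055), but only 76.7% of its counts lay on matched transcripts. With gene counts summed from the transcript table the call was lost and the sign turned, at 0.16 (edgeR adjusted p = 0.68). PDK1, the HIF-responsive form, was the only kinase of the 4 with a value above 0 in the fit, at 27.9 ± 1.49 and 31.7 ± 1.43 CPM. Its libraries did not overlap, but its log2 fold change of 0.18 missed the limit (edgeR adjusted p = 0.014) and passed it without the first PC9 library (log2 fold change 0.23, edgeR adjusted p = 0.0026).

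Within the kinase family, PDK1 went from 17.6% ± 1.29 to 24.9% ± 2.09 of TPM and PDK4 from 6.23% ± 0.38 to 2.35% ± 0.14. Neither overlapped between conditions (exact permutation p = 0.1 for each, the smallest possible). The largest part of PDK2 TPM, 29.4% in PC9 and 31.35% in PS, lay on PDK2-215, annotated as retaining an intron. PDK2 held most of the family TPM, 69.2% ± 2.19 in PC9 and 63.6% ± 2.93 in PS (exact permutation p = 0.1), but this difference of -5.65 points did not hold. It became 0.622 points, with overlap, when gene counts were divided by the longest transcript, -3.96 points, with overlap, without transcripts of few counts, and -3.11 points, with overlap, with a mean transcript length. PDK3 made up 6.98% ± 1.81 and 9.18% ± 1.49, with overlapping libraries (exact permutation p = 0.3). Its difference of 2.19 points turned to -0.41 points with undivided counts and to -1.17 points with a mean transcript length. All TPM shares of this family rest on a PDK3 TPM that misses a different part of its counts in each library.

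On the side of the target of these kinases, PDHA1, which encodes the E1 alpha subunit that they phosphorylate, was at 82.5, 82.2 and 82.2 CPM in PC9 and at 93.3, 97.8 and 95.5 CPM in PS. Each PS library was higher, with a log2 fold change of 0.22 ± 0.037 (SE; edgeR adjusted p = 0.00039). PDHB, the partner E1 beta subunit, was at 86.6 ± 2.90 CPM in PC9 and 81.2 ± 3.08 CPM in PS and was not called (log2 fold change -0.093, edgeR adjusted p = 0.083), but it passed the limit when libraries were scaled by size only (log2 fold change -0.15, edgeR adjusted p = 0.0090). In the TPM of the pair PDHA1 went from 52.0% ± 0.19 to 56.3% ± 0.80, without overlap (exact permutation p = 0.1, the smallest possible). The largest part of PDHA1 TPM, 48.8% in PC9 and 47.5% in PS, lay on a transcript annotated as retaining an intron. With gene counts left undivided the PDHA1 share was 48.7% ± 0.79 in PC9 and 54.05% ± 0.37 in PS. Divided by the longest transcript it was 55.0% ± 0.78 and 60.2% ± 0.35. The difference thus held, while which subunit led in PC9 depended on the length used. MPC1 and MPC2 together form the carrier that takes pyruvate into the mitochondrion. MPC1 was at 5.17, 4.55 and 5.35 CPM in PC9 and at 7.95, 6.96 and 7.34 CPM in PS, from 155 to 251 counts per library. It was higher in all PS libraries (log2 fold change 0.56 ± 0.098 SE, edgeR adjusted p = 0.00043). MPC2 rose from 57.2 ± 1.21 to 65.2 ± 1.38 CPM (log2 fold change 0.19, edgeR adjusted p = 0.0017), and this call was lost without the third PS library (log2 fold change 0.18, edgeR adjusted p = 0.013) and with scaling by size only (log2 fold change 0.14, edgeR adjusted p = 0.012). MPC1 was the scarcer partner per length, with 11.7% ± 1.28 of the TPM of the pair in PC9 and 16.6% ± 0.88 in PS (exact permutation p = 0.1, the smallest possible).

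The shares of at least 1 gene were separate between PC9 and PS in 10 of the 11 families and subunit pairs, all but the glucose carriers. This is a description, since 71.3% of all genes tested did not overlap and a family counts as separate if any of its shares is. The glucose carriers were separate as well when gene counts were left undivided (SLC2A1 at 91.4% ± 0.41 in PC9 and 90.4% ± 0.26 in PS) or were divided by the longest transcript (93.3% ± 0.33 and 92.5% ± 0.21). The 34 genes together made up 1.71% to 1.86% of all TPM in the PC9 libraries and 1.77% to 1.82% in the PS libraries, and these ranges overlap. GAPDH led in every library, with 41.8% to 43.4% of the TPM of the 34 genes in PC9 and 36.1% to 36.9% in PS. Behind it the order changed: ALDOA, ENO1, PKM, LDHA and LDHB followed in PC9, at 1959 ± 78.6, 1395 ± 34.7, 1376 ± 41.3, 1239 ± 9.04 and 1187 ± 44.1 TPM, while in PS LDHA, PKM, ALDOA, ENO1 and TPI1 followed, at 1949 ± 23.4, 1847 ± 28.1, 1717 ± 30.9, 1528 ± 31.6 and 1185 ± 34.2 TPM. Among these neighbours the libraries overlapped only for ENO1 and PKM in PC9. This order rests on the lengths used, and no other length was tried for it. In PS 30.1% of TPI1 TPM lay on TPI1-204, annotated as retaining an intron, and 25.5% of LDHA TPM on LDHA-220, of 576 bases. In CPM, not divided by length, the PS means were 2113 for PKM, 1363 for ENO1, 1292 for ALDOA and 1265 for LDHA. LDHB, at 653 CPM in PS, was there above TPI1, at 642 CPM. PDK4 had the lowest mean of the 34 genes in both conditions, at 4.85 ± 0.17 and 1.59 ± 0.19 TPM, but in PC9 its libraries overlapped those of PDK3 and PFKFB4. Because of the partial match of transcripts, the TPM of SLC16A1, PDK3, MPC1 (82.6% of counts matched) and GPI (84.2%) are understated, and HK1, HK2, FBP1, ALDOA, SLC16A1, SLC16A3, PDHA1 and PDK1 had most of their counts on transcripts whose version differs from the annotation.

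**Figure D3:**
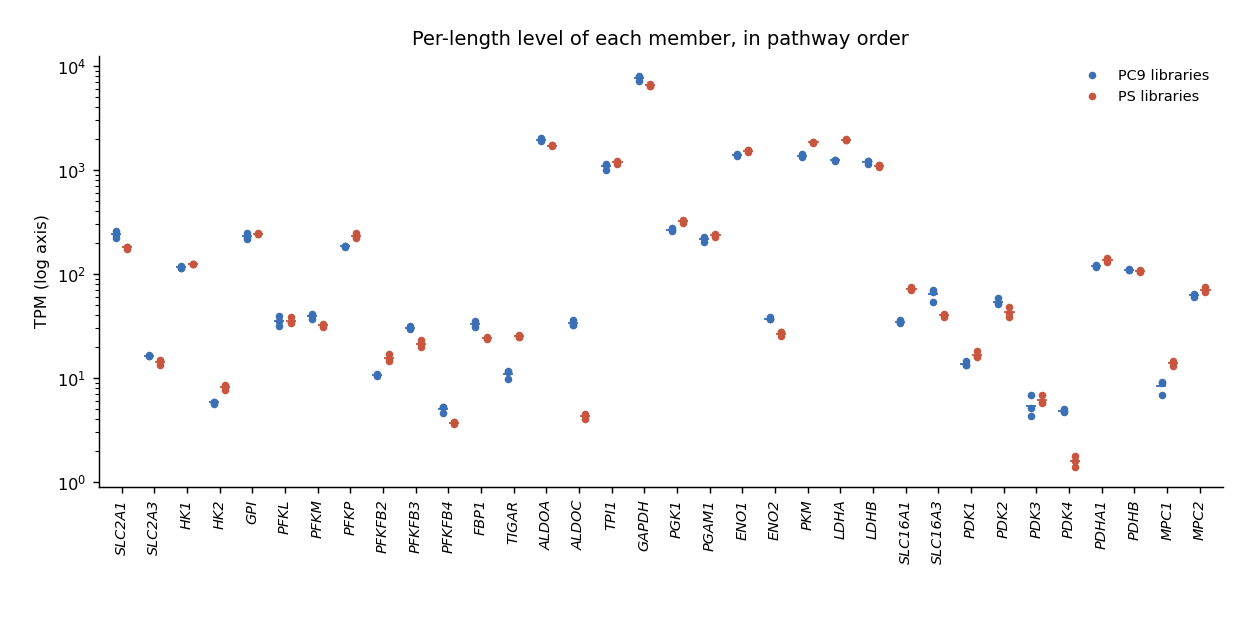
Points are the TPM of each gene in the 3 PC9 (blue) and 3 PS (red) libraries on a log axis, with a bar at the mean, and genes in the order of the reactions. GAPDH is the highest gene in both conditions, at 7670 and 6517 TPM, and LDHA and PKM rise to join ALDOA behind it in PS, while ALDOC drops from 33.5 to 4.31 TPM.

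Transcript usage within the genes was tested for the 31 members with more than 1 transcript that passed the filter, and not for PGAM1, PDK4 and MPC1. By edgeR's diffSpliceDGE with a Simes p per gene and the limit of 0.01, 0 of the 31 were called, against 1.81% of 10546 genes tested. At an unadjusted p under 0.05 there were 3, ALDOA, ENO1 and PKM, named after their values were seen, with edgeR adjusted p of 0.012, 0.041 and 0.14. With an F test in place of Simes 2 were called, ALDOA and HK2. Leaving out 1 library gave 1 call in 3 of 6 cases, ENO1 without the second PC9 library, PFKM without the third PC9 library and ALDOA without the first PS library. Among the genes with large changes, TIGAR carried most of its TPM on TIGAR-202, a transcript of 527 bases with no defined coding sequence, which held 79.8% ± 6.27 in PC9 and 66.7% ± 2.84 in PS. This share rested on few counts over a short length, 76 to 93 per PC9 library and 120 to 155 per PS library. The coding transcript TIGAR-204, of 3633 bases, had 64 to 140 counts per PC9 library and 384 to 408 per PS library. The coding TIGAR-201, of 8209 bases, had 97 to 134 and 201 to 225. The usage of TIGAR transcripts was not called (edgeR adjusted p = 1).

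Genes next to the pathway were read from 8 lists written from general knowledge, with the 4 smallest p-values of each list named. Of 120 tested genes on these lists 75 were called, and each list is described by its counts against the 56.8% of all genes. Among the other enzymes of glycolysis and gluconeogenesis, 9 of 16 tested were called, 5 higher and 4 lower, with a median log2 fold change of 0.11. PGP, which clears side products of glycolysis, rose by 0.53, G6PC3, a glucose 6-phosphatase, by 0.55 and PCK2, the mitochondrial phosphoenolpyruvate carboxykinase, by 0.47, while GALM, which interconverts the anomers of hexoses, fell by 1.00 on the log2 scale. Of the other hexose and monocarboxylate carriers 10 of 16 were called, 6 higher and 4 lower, with a median of 0.30. SLC16A5, SLC2A12 and SLC2A10 had log2 fold changes of -1.74, -1.02 and -0.66, and EMB, an escort of monocarboxylate carriers at the cell surface, had 0.50.

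Of the other lactate and shuttle enzymes, which pass reducing equivalents into the mitochondrion, 6 of 10 were called, 4 higher and 2 lower, with a median of 0.15. SLC25A13, GOT1 and GOT2 of the malate-aspartate shuttle rose by 0.78, 0.52 and 0.20 on the log2 scale, while GPD2 of the glycerol phosphate shuttle fell by 0.70. Of the other pyruvate dehydrogenase genes 8 of 11 were called, 2 higher and 6 lower, with a median of -0.14. These included the phosphatases that undo the work of the kinases: PDP1 fell by 1.08, from 75.8 ± 5.35 to 35.9 ± 2.43 CPM, and PDP2 fell by 0.68, while their regulator PDPR rose by 0.32. LIAS, which makes the lipoate that the complex needs, fell by 0.80 on the log2 scale. Kinases (PDK2 and PDK4) and phosphatases (PDP1 and PDP2) were thus both lower in PS, as was PDK3 in the gene table but not in the counts summed from transcripts.

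The pentose phosphate pathway, which branches off at glucose 6-phosphate, was mostly lower: 8 of 11 tested genes were called, 7 of them lower, with a median log2 fold change of -0.25 against -0.0061 for all genes. TKT, transketolase, fell from 2023 ± 63.9 to 848 ± 22.8 CPM (log2 fold change -1.25, edgeR adjusted p = 4.9e-10). PGD, which makes NADPH, fell from 733 ± 13.8 to 399 ± 9.38 CPM (log2 fold change -0.88, edgeR adjusted p = 4.0e-09), and RPIA fell by 0.62 on the log2 scale. PRPS1, which draws ribose 5-phosphate off into nucleotide synthesis, was the single gene of this list called higher, from 81.9 ± 1.58 to 212 ± 5.70 CPM (log2 fold change 1.37, edgeR adjusted p = 3.2e-10). TIGAR, whose activity favours this branch, was thus higher beside lower levels of most of the genes of the branch.

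In glycogen metabolism 4 of 12 tested genes were called, 2 in each direction, with a median of 0.035. The liver-type glycogen phosphorylase PYGL fell by 0.72 and the brain-type form PYGB rose by 0.39, glycogenin GYG1 rose by 0.57, and PPP1R3B, which targets a phosphatase to glycogen, fell by 0.84 on the log2 scale. Of the HIF-responsive genes outside glycolysis 18 of 23 were called, 11 higher and 7 lower, with a median of 0.16. EGLN3 and EGLN1, the oxygen sensors that mark HIF for destruction and are themselves induced by it, rose by 1.43 and 0.89, the collagen prolyl hydroxylase P4HA2 rose by 1.03, and ZNF395 fell by 0.80 on the log2 scale. Of the regulators of glycolytic transcription 12 of 21 were called, 7 higher and 5 lower, with a median of 0.093. EPAS1, which encodes HIF-2 alpha, rose by 0.45 and PPARGC1B, a coactivator of mitochondrial genes, by 1.17, while TXNIP, a glucose-induced brake on glucose uptake, fell by 0.46 and MLX, the partner of the glucose-sensing factors MLXIP and MLXIPL, fell by 0.53 on the log2 scale.

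**Figure D4:**
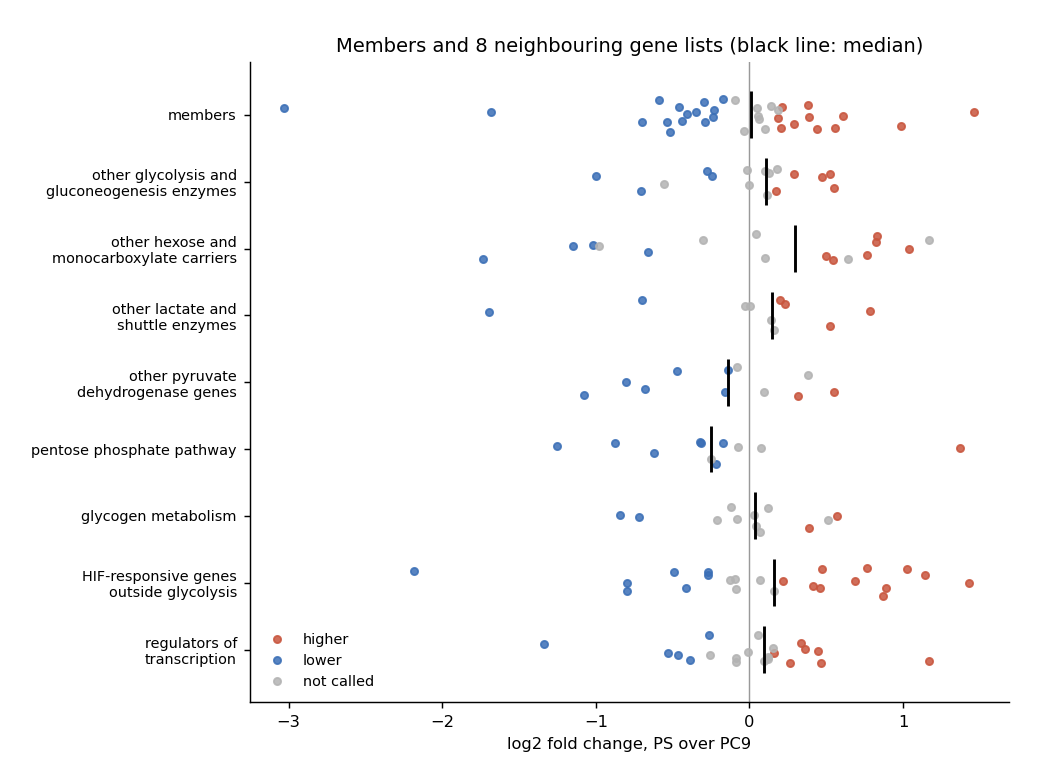
Each point is a tested gene, placed by its log2 fold change of PS over PC9, in the 34 genes of the pathway (top row, members) and the 8 neighbouring lists; red and blue mark genes called higher and lower in PS, grey marks genes not called, and the black line is the median. The pentose phosphate row lies mostly to the left of 0, at a median of -0.25, with PRPS1 alone at 1.37, while the row of the pathway spreads to both sides around 0.0085.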

How the data were processed

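Poly-A RNA libraries of 3 PC9 and 3 PS samples were sequenced as paired 75-base reads. The authors pseudoaligned them with Kallisto (0.46.1 in the submitters' processing notes) to Ensembl release 96 transcripts of GRCh38 and deposited estimated counts as whole numbers, not normalized, for gene symbols and for transcripts. Conditions came from the sample labels, dose and culture numbers from the paper. Whether counting used strand is not given in the sources used here. Libraries of another laboratory were not analysed here.

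Gene counts were fitted once over all genes in R 4.3.3 with edgeR 4.0.16 (filterByExpr defaults, TMM, glmQLFit and glmQLFTest, no block), with Benjamini-Hochberg adjustment over all genes tested and a limit of 0.01. Standard errors (SE) were obtained as the absolute log2 fold change over the root of its F statistic. TPM used transcript lengths of GENCODE 44, matched by identifier without version (167067 of 188753 transcripts, with 95.8% of transcript counts). Coordinates are from the same annotation. Shares were compared by exact permutation over libraries. The division of reads among similar transcripts by Kallisto carries an uncertainty that enters no test. Of 108 rows for processed pseudogenes and near-identical paralogs, 0 reached a mean of 100 counts, and the highest was 0.998% of its host gene.

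Alternatives were other normalizations and filters, DESeq2 1.42.0, limma 3.58.1 voom, gene counts from transcripts, pseudogenes added, a replicate block, each library left out, other limits and other length divisions. The scripts were tested on simulated data. Named were every gene of the pathway, the 4 smallest p-values of each neighbouring list, and any changed transcript. No gene of the pathway was called for usage by Simes, so the transcripts named were picked after their values were seen. The genes, lists and tests were chosen with earlier results of these data known. Figures were drawn with matplotlib 3.10.9.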

Additional observations from a re-analysis of the deposited data

How the results depend on the processing

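Of 510 values of the 34 genes under 15 alternatives each, 491 kept their direction and side of the limit, 11 came to pass it, 4 no longer passed and 4 changed sign, none of these last passing the limit under that alternative. The sign changed for PFKL without the second PC9 library and without the first PS library (left-out values of -0.10 to 0.039), for TPI1 with library size only (-0.0019) and for PDK3 with transcript sums (0.16). The PDK2 share reversed to 0.622 points with the longest transcript length. All 448 values of the named list genes kept their call. With a fold change above 1.5 as well, 7 of the 34 genes and 34 list genes were called, in place of 26 and 75. Leaving out 1 library gave 25 to 28 called genes of the 34, 63 to 76 list genes, 10 to 11 families with separate shares, 0 to 1 genes with changed usage and a PKM2 difference of 1.32 to 2.61 points. Usage was called for 2 genes with the F test and for 2 at a limit of 0.05. The PKM2 difference was 0.0043 points with coding transcripts only. The cause of these changes was not tested, including for PDK3, where 76.7% of counts lay on matched transcripts, a part that differed between libraries. Replicate numbers did not pair the samples: deviations of same-numbered libraries correlated at 0.124, 0.0236 and 0.0215. With the replicate block 28 of the 34 genes (13 higher, 15 lower), 75 list genes and 0 usage changes were called. Other scalings moved the median of all genes to at most -0.059. The lowest counts were those of PDK4, at 72 to 100, and ALDOC, at 98 to 127 per PS library, and both kept their call under all 15 alternatives.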
